A study of Mus musculus with 4 samples.

Results

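Neutrophil granule genes were followed in single bone marrow cells of TLR9-/- mice, which lack the endosomal receptor for unmethylated CpG DNA, and of wildtype (WT) mice. The genes were chosen by name. They were Camp, Ngp, Ltf, Lcn2, Mmp8, Mmp9, Chil3, Retnlg, Fcnb and Pglyrp1, 10 of the 31053 genes in the count tables, and each matched 1 row. All mice were C57BL/6, and beyond the Tlr9 genotype the labels name no other allele, no treatment and no age for these animals. Each of 2 TLR9-/- mice and 2 WT mice gave 1 library of bone marrow mononuclear cells, read from the 5′ end of transcripts with unique molecular identifiers (UMIs), each UMI standing for 1 captured molecule. The mice were studied in 2 experiments, each with 1 mouse of either genotype, and the labels do not tie the library numbers to the experiments, so that an effect of the experiment could not be assigned. Cells came from the interface of a density gradient, which mature, dense neutrophils largely pass through. The genotypes were bred in separate cages, so cage and genotype cannot be told apart. With 2 libraries per genotype, p-values measure the spread between these animals only.

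Neutrophils build their granules in sequence while they mature. Primary granules, with myeloperoxidase and elastase, are filled in promyelocytes. Secondary (specific) granules follow in myelocytes and metamyelocytes and carry lactoferrin, lipocalin-2 and cathelicidin. Tertiary granules, rich in gelatinase, come last in band cells. Which granule a protein enters is largely set by when its gene is transcribed, and the transcription factor C/EBP epsilon is required for the secondary set.

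Among the 10 genes, Camp encodes the antimicrobial peptide cathelicidin, Ngp a cystatin-like granule protein, Ltf the iron-binding protein lactoferrin and Lcn2 the siderophore-binding protein lipocalin-2. Mmp8 encodes neutrophil collagenase and Mmp9 gelatinase B. Chil3 encodes the chitinase-like lectin Ym1, Fcnb the pattern-recognition lectin ficolin-B, Pglyrp1 a peptidoglycan-binding protein and Retnlg a resistin-like secreted protein. Chil3 has a close paralogue, Chil4, on the same chromosome, and how reads shared by both were assigned affects the Chil3 counts to an unknown extent.

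In the GENCODE annotation of GRCm38, 4 of the 10 genes lay on chromosome 9, which also carries Tlr9 (106222598 to 106226883). Camp (109847379 to 109849617, minus strand), Ngp (110419747 to 110423012, plus strand) and Ltf (111019271 to 111042767, plus strand) were 3.62, 4.19 and 4.79 Mb from Tlr9. Mmp8 (7558456 to 7568485, plus strand) was 98.7 Mb away. Lcn2 (32384633 to 32388252, minus strand), Mmp9 (164940780 to 164955850, plus strand) and Fcnb (28076378 to 28084885, minus strand) were on chromosome 2. Chil3 (106147554 to 106167564, minus strand) was on chromosome 3, Pglyrp1 (18871331 to 18890459, plus strand) on chromosome 7 and Retnlg (48872621 to 48874496, plus strand) on chromosome 16. All 10 were annotated as protein-coding.

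The 250 bases before the start sites of these genes were searched for the C/EBP half-site pair TTGCNNAA. Both strands were searched, with N standing for any base. RefSeq start sites on GRCm38.p6 were at hand for 9 of the 10 genes, all but Mmp9. Of the 9, 6 held the letters (Ngp, Ltf, Lcn2, Mmp8, Retnlg and Fcnb), against 9.56% of the 32851 start sites searched, which do not cover every chromosome. The only match in Lcn2 lay before the RefSeq start but within the gene as annotated by GENCODE. The stretches below lie before both the RefSeq and the GENCODE start, with the matched letters in capitals, 5′ to 3′ on the strand of the gene. They are shown because they cover an early gene (Fcnb), genes of the middle of the series (Ngp, Ltf) and late ones (Mmp8, Retnlg).
Fcnb, chr2:28084958-28085037, minus strand: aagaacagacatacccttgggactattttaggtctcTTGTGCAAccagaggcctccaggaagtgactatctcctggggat
Ngp, chr9:110419634-110419713, plus strand: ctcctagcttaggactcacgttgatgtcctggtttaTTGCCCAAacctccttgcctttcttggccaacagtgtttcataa
Ltf, chr9:111019181-111019260, plus strand: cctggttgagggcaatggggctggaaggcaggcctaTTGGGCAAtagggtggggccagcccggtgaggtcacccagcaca
Mmp8, chr9:7558374-7558428, plus strand: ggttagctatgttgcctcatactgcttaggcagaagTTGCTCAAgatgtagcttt
Retnlg, chr16:48872358-48872405, plus strand: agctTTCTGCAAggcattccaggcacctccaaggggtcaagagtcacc
Counted from the RefSeq start, the matched letters began at -123 in Fcnb, -138 in Ngp, -75 in Ltf, -19 in Mmp8 and -246 in Retnlg. Fcnb and Ngp held a second match each, that of Ngp (-11) within the GENCODE gene. No match was found in Camp, Chil3 or Pglyrp1. The letters GAGGAAG, a core bound by PU.1, were in 3 of the 9 (Lcn2, Mmp8 and Pglyrp1) and in 10.6% of the start sites searched. The GAGGAAG matches of Lcn2 and Pglyrp1 lay within the GENCODE genes. TATAAA was in 0 of the 9 and in 12.4% of the start sites searched. Such matches describe letters and do not show binding.

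After filtering, 39167 of 40545 cells remained, with 31210188 to 63958243 UMIs per library. Each pair of values below is given for library 1, then library 2, of a genotype. The 10 genes took 1.64% and 2.38% of the UMIs of TLR9-/- cells and 1.37% and 2.75% of those of WT cells. Tlr9 itself had 41 and 48 UMIs with the TLR9-/- genotype and 120 and 97 with the WT genotype. Between 118 and 203 cell barcodes were shared by any pair of libraries. WT library 2 stood apart through neutrophil RNA in cells that should lack it. In its B lineage cells Camp reached 2.01 UMIs per 10000, against 0.384 to 0.485 in the other 3 libraries.

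Cells were sorted into 10 gates by the share of their UMIs on marker genes that include none of the 10 granule genes, and 25585 cells fell into a gate. Granulocyte progenitors (775 cells) were rich in the primary granule genes Mpo, Elane, Prtn3 and Ctsg and low in S100a8 and S100a9. Late granulocyte progenitors (727 cells) had both. Neutrophil gates required high S100a8 and S100a9 with little primary granule RNA, and were split into cycling neutrophils (1119 cells), non-cycling immature neutrophils (2581 cells) and late neutrophils (1703 cells) by cell-cycle and late markers such as Cxcr2 and Il1b. Monocyte gates (961 progenitors, 1698 cycling, 1965 classical and 71 nonclassical cells) were set by Csf1r, F13a1, Ccr2 and related genes, and by low S100a8 and S100a9. B lineage cells (13985) were assumed not to express these genes, and their level served as the measure of free RNA. Whether they express none of the 10 genes was not tested. Of the UMIs of the 10 genes, 83.5% to 90.3% per library lay in the gates from late granulocyte progenitors to late neutrophils. The gates follow RNA content, not morphology, and 468 of the 5403 neutrophil cells lay close to the limit of the late list (35 to 70 UMIs per 10000). Levels below are UMIs of a gene per 10000 UMIs of all genes in the gate, as mean ± SD over 4 libraries. A 5′ count is not divided by transcript length. Median UMIs per cell were 5899.5 to 9813 in cycling neutrophils. They were 2084 to 3442.5 in non-cycling immature and 785 to 1544 in late neutrophils. A rise in level between these gates is thus relative to other genes and need not be a rise per cell.

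**Figure D1:**
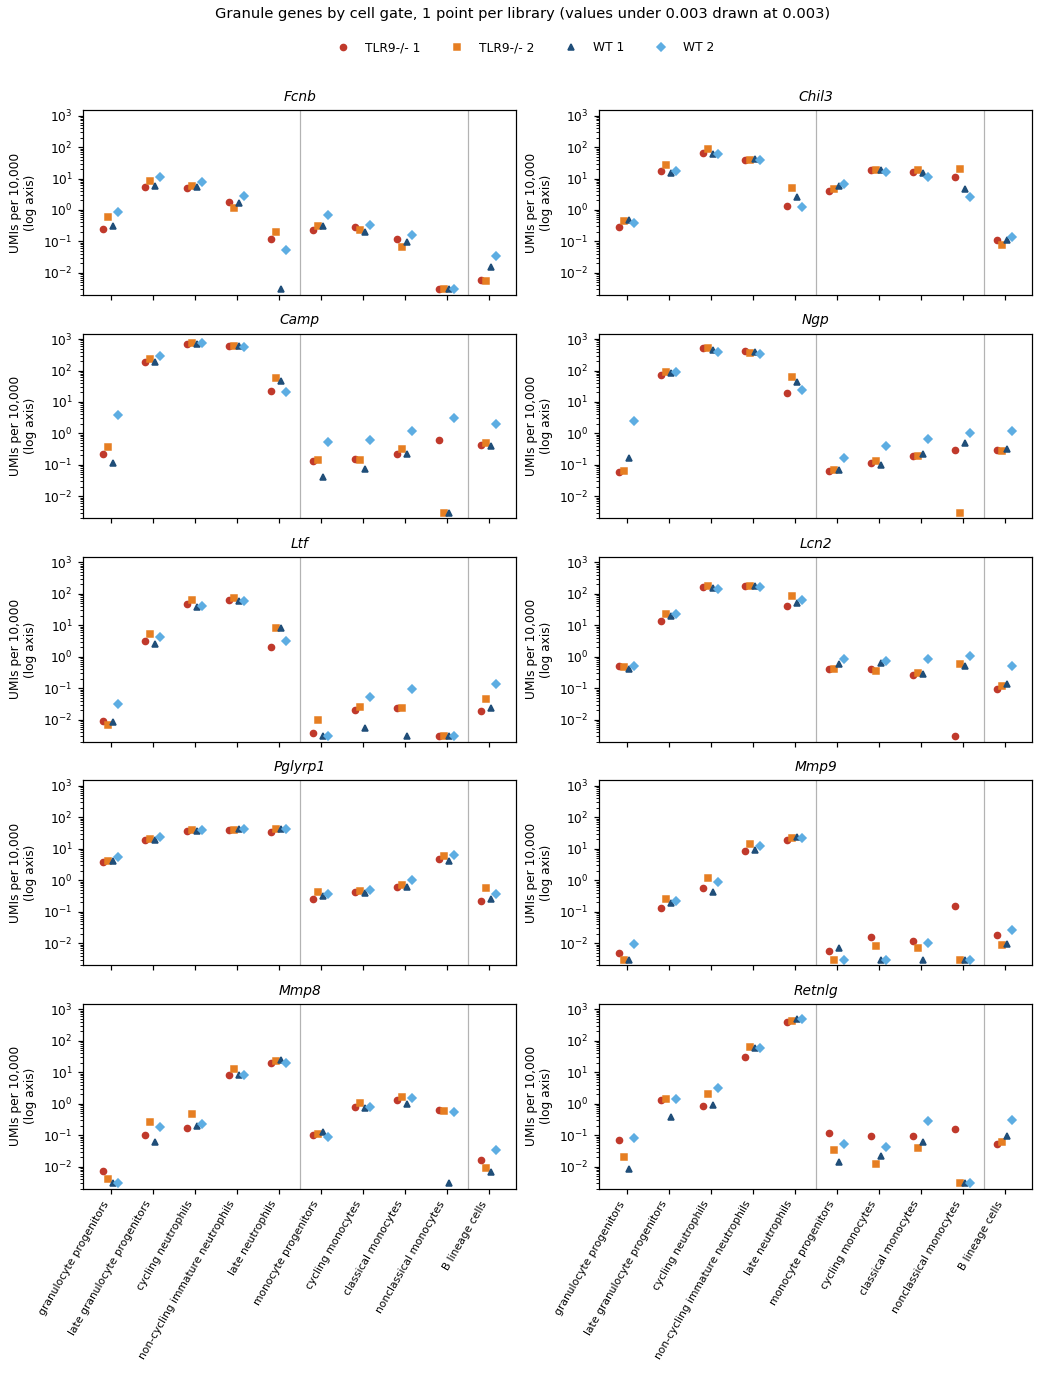
Level of each granule gene (y axis, UMIs per 10000, log axis) in 10 cell gates (x axis), with 1 point per library and the lowest values drawn at the floor named in its title. Grey lines part neutrophil, monocyte and B lineage gates, and genes are ordered by their place along the neutrophil gates from Fcnb to Retnlg. Camp peaked in cycling neutrophils at 725 ± 16.3 and Retnlg in late neutrophils at 455 ± 59.9, and WT library 2 lay above the others for Camp and Ngp in granulocyte progenitors, classical monocytes and B lineage cells.

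Fcnb was the earliest of the genes. Its level was 5.49 and 8.03 in late granulocyte progenitors of TLR9-/- mice and 5.97 and 11.01 in those of WT mice. Granulocyte progenitors had 0.502 ± 0.283 and cycling neutrophils 5.97 ± 1.15, which overlapped with the late progenitors. By edgeR's quasi-likelihood test with the library as a block, Fcnb rose 18.5-fold from granulocyte progenitors to late granulocyte progenitors (log2 4.21, SE 0.098, adjusted p = 4.44e-17). It then fell by 1.44 on the log2 scale from cycling to non-cycling immature neutrophils (SE 0.12, adjusted p = 3.44e-08) and by 4.07 from there to late neutrophils (SE 0.33, adjusted p = 4.8e-09). Within late neutrophils Fcnb was under the count filter. It entered this last step through the earlier gate and could only be called lower.

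Camp and Ngp peaked in cycling neutrophils. Camp had 708 and 724 UMIs per 10000 in that gate of TLR9-/- mice and 721 and 747 in WT. Ngp had 506 and 501 in TLR9-/- and 442 and 393 in WT. Late granulocyte progenitors already held 225 ± 47.3 for Camp and 83.7 ± 9.18 for Ngp, whereas granulocyte progenitors held 0.118 to 3.80 and 0.0587 to 2.52, the upper values being those of WT library 2. From granulocyte to late granulocyte progenitors, Camp rose 454-fold (log2 8.83, SE 0.45, adjusted p = 7.96e-12). In non-cycling immature neutrophils Camp was 589 ± 21.2 and Ngp 377 ± 33.1. Relative to other genes neither passed edgeR's test against the cycling cells (Camp log2 0.02, SE 0.087, adjusted p = 0.884, and Ngp 0.03, SE 0.087, adjusted p = 0.775). Scaled by total UMIs alone, Camp fell by 0.30 (adjusted p = 0.000373) and Ngp by 0.29 (adjusted p = 0.000855), and the median of all genes was then -0.31 in place of 0.0021. Late neutrophils had 37.4 ± 18.9 for Camp and 36.4 ± 18.7 for Ngp, so that Camp fell by 4.38 (SE 0.25) and Ngp fell by 3.76 (SE 0.24) on the log2 scale (adjusted p = 3.88e-11 and 2e-10).

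Chil3 had the same peak gate, with 66.3 and 87.3 in TLR9-/- and 61.9 and 61.6 in WT. Non-cycling immature neutrophils held 39.3 ± 1.67, so that it fell by 0.49 on the log2 scale from cycling cells (SE 0.096, adjusted p = 0.000363), and late neutrophils held 2.56 ± 1.78, where it fell by 4.37 more (SE 0.28, adjusted p = 1.67e-10).

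Ltf and Lcn2 had their highest means in non-cycling immature neutrophils, with libraries that overlapped with cycling neutrophils for both genes. Ltf had 62.5 and 72.9 there in TLR9-/- and 61.3 and 60.1 in WT. Cycling neutrophils had 48.2 ± 10.4 and late granulocyte progenitors 3.85 ± 1.21. Relative to other genes, Ltf rose 17.2-fold into the cycling gate (log2 4.10, SE 0.12, adjusted p = 5.09e-14) and 1.68-fold more in non-cycling cells (log2 0.75, SE 0.089, adjusted p = 2.31e-06). Lcn2 had 182 and 173 in the non-cycling gate of TLR9-/- mice and 177 and 163 in that of WT mice. Cycling cells held 149 to 175 (162 ± 13.1). In TLR9-/- library 2 the cycling cells had the higher level. The step was small (log2 0.42, SE 0.084, adjusted p = 0.00043), and the call was lost with scaling by total UMIs (log2 0.10, adjusted p = 0.161). Late neutrophils kept 60.9 ± 18.3 of Lcn2, where it fell by 1.80 (SE 0.18, adjusted p = 6.18e-08), and Ltf fell by 4.03 (SE 0.25, adjusted p = 1.47e-10).

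Pglyrp1 was spread over all neutrophil gates. Granulocyte progenitors already had 4.36 ± 0.805. Cycling, non-cycling immature and late neutrophils had 37.9 ± 1.86, 41.4 ± 1.11 and 40.3 ± 3.84. The change into late neutrophils did not pass the test (log2 -0.29, SE 0.13, adjusted p = 0.0577), with calls when doublets or TLR9-/- library 2 were left out (log2 -0.35 and -0.41, adjusted p = 0.0227 and 0.0207).

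Mmp8, Mmp9 and Retnlg were the late genes. Mmp8 had 20.4 and 23.1 in late neutrophils of TLR9-/- mice and 25.3 and 19.4 in those of WT mice. Mmp9 had 19.4 and 21.3 against 23.1 and 22.5. Both were near 0 in cycling neutrophils, at 0.268 ± 0.147 and 0.763 ± 0.351. In non-cycling immature neutrophils Mmp8 rose 43.9-fold to 9.36 ± 2.46 (log2 5.45, SE 0.13, adjusted p = 8.19e-15) and Mmp9 18.2-fold to 11.1 ± 2.73 (log2 4.19, SE 0.12, adjusted p = 2.13e-13). Relative to other genes, the last step added 2.01-fold for Mmp8 (adjusted p = 1.34e-06) and 1.66-fold for Mmp9 (adjusted p = 5.92e-05). Median depth fell over the same step, so the UMIs per cell need not have risen.

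The level of Retnlg was 1.72 ± 1.09 in cycling neutrophils and 52.1 ± 14.5 in non-cycling immature neutrophils, where TLR9-/- library 1 lay lowest at 30.6 and the other 3 libraries at 57.5 to 61.7. In late neutrophils it reached 393 and 414 in TLR9-/- and 501 and 511 in WT. It rose 39.7-fold into the non-cycling gate (log2 5.31, SE 0.22, adjusted p = 8.54e-12) and 7.57-fold more into the late gate (log2 2.92, SE 0.15, adjusted p = 9.94e-12).

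Counted over the steps, 10 of 10 genes rose from granulocyte to late granulocyte progenitors, where 24.1% of 9046 genes tested rose and 23.6% fell. Ltf, Mmp8 and Mmp9 had 0 to 7 UMIs per library in granulocyte progenitors and were under the count filter within that gate. They entered this step through the later gate and could only be called higher. In the step to cycling neutrophils 9 rose, all but Fcnb, against 28.6% higher and 28.0% lower of 8650 genes. The step to non-cycling immature neutrophils had 6 higher (Ltf, Lcn2, Mmp8, Mmp9, Retnlg and Pglyrp1) and 2 lower (Chil3 and Fcnb), against 27.9% higher and 28.5% lower of 7568 genes. Scaled by total UMIs alone, this step had 4 higher and 4 lower, since Lcn2 (adjusted p = 0.161) and Pglyrp1 (log2 0.13, adjusted p = 0.0940) were lost and Camp and Ngp were called lower. In the last step 3 rose (Mmp8, Mmp9 and Retnlg) and 6 fell, against 26.4% and 28.8% of 4670 genes. Fcnb was among those that fell, and could only be called lower, since it was under the count filter within late neutrophils. The median log2 change of the 10 genes was 5.83, 2.24, 0.43 and -2.78 over the 4 steps, and that of all genes tested was between -0.04 and 0.03.

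The order was described on a finer scale by ranking the 6905 cells of the 5 gates on an index of S100a8 and S100a9, primary granule, late and cell-cycle RNA and cutting it into 10 bins of equal size. A gene's position is the mean bin, weighted by its level, as a percentage of the index. Fcnb came first at 28.6% ± 2.21 (SD, n = 4 libraries). Chil3 at 43.7% ± 2.05, Camp at 47.1% ± 1.84 and Ngp at 48.7% ± 0.874 followed. Ltf lay at 53.4% ± 1.66, Lcn2 at 54.6% ± 0.332 and Pglyrp1 at 57.8% ± 0.615. This mean is not the peak. In TLR9-/- libraries 1 and 2 and WT libraries 1 and 2, Lcn2 was highest in bins 4, 4, 7 and 4, Ltf in 7, 7, 7 and 6. Lcn2 still held 78.9 and 53.6 UMIs per 10000 in bins 9 and 10. As a share of UMIs, Pglyrp1 stayed at 37.4 to 42.5 from bin 3 to bin 10, so its position marks no peak of that share. Median UMIs per cell fell from 10461 in bin 3 to 901.5 in bin 10, so a flat share is not a constant level per cell. Mmp9 at 74.9% ± 2.45, Mmp8 at 77.1% ± 2.93 and Retnlg at 83.2% ± 1.83 were last.

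Neighbours in this order were not all apart. The libraries' ranges overlapped between Chil3 and Camp, Camp and Ngp, Ltf and Lcn2, and Mmp9 and Mmp8, although within a library the order held in 4 of 4 for all of these pairs but Ltf and Lcn2 (3 of 4). The ranges did not overlap for the other neighbours. The steps were 15.1% ± 0.664 from Fcnb to Chil3, 4.77% ± 0.820 from Ngp to Ltf, 3.22% ± 0.535 from Lcn2 to Pglyrp1, 17.1% ± 2.02 from Pglyrp1 to Mmp9 and 6.12% ± 1.55 from Mmp8 to Retnlg. The last pair nearly met, at 80.9% for Mmp8 and 81.0% for Retnlg. With 4 paired libraries no exact two-sided test can go below p = 0.125, so no test was made. Of the 45 gene pairs, 45 kept their order with 20 bins, with an index from a principal component of other genes, with cells thinned to 1000 UMIs and with any library left out. With the principal component 5 positions moved by at least their SD over libraries, and thinning left out 974 of the 6905 cells. A pair in order in 4 of 4 libraries cannot turn when a library is left out.

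**Figure D2:**
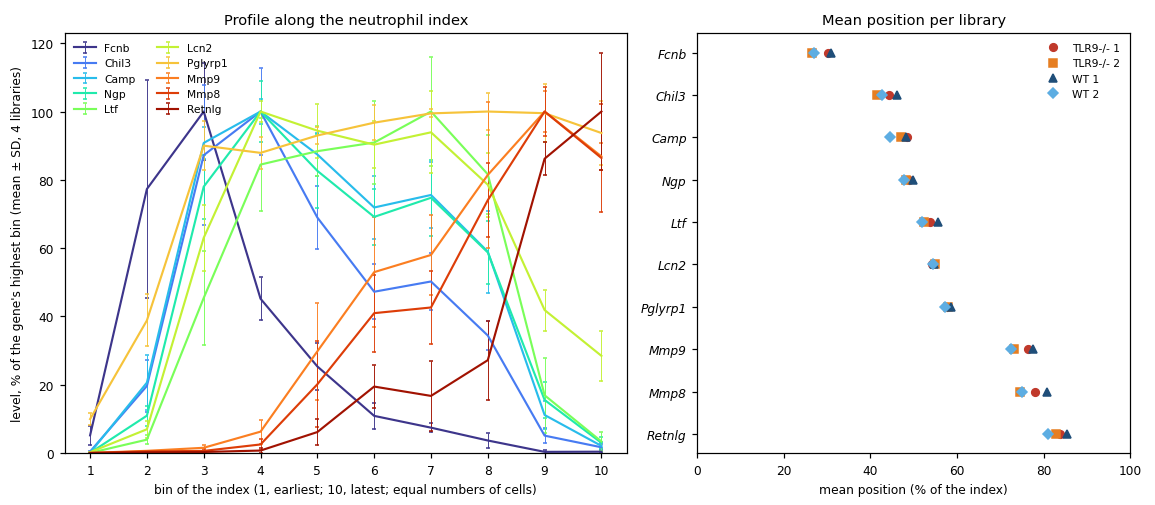
Left, level of each gene (y axis, percent of its highest bin, mean ± SD of 4 libraries) over 10 bins of the neutrophil index (x axis). Right, mean position of each gene (x axis, percent of the index) in each library, from Fcnb at 28.6% to Retnlg at 83.2%, with a gap of 17.1% between Pglyrp1 and Mmp9.

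Further lists placed these steps among other granule genes. Of 6 primary granule genes, 5 were tested in the step from late granulocyte progenitors to cycling neutrophils, and 5 fell. Ctsg, cathepsin G, fell by 6.995 (SE 0.13) and Mpo, myeloperoxidase, by 6.66 (SE 0.15) on the log2 scale. Mpo, Elane, Prtn3 and Ctsg had set the gates, so that this fall is a description only. In the same step 17 of 18 further granule and granule membrane genes tested rose, beside 28.6% of all genes, among them Cd177, a neutrophil surface protein (log2 2.85, SE 0.090), and Lyz2, lysozyme (log2 2.62, SE 0.10). Within late granulocyte progenitors 15 of the list passed the count filter, and within cycling neutrophils 18 did. Some of the list thus entered this step through the later gate and could only be called higher. Of 20 genes in that list, 19 were tested in the step to late neutrophils, where 6 rose and 10 fell, beside 26.4% and 28.8% of all genes. Within late neutrophils 18 of the list passed the count filter, so not every gene could be called in both directions. Fpr1 of that list is also among the markers of the late gate. Slpi, a protease inhibitor, rose by 2.17 (SE 0.14) and Orm1, an acute-phase protein, fell by 4.55 (SE 0.31).

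Transcription factors of the granule programme moved in both directions. Cebpe, which encodes C/EBP epsilon, rose by 1.56 (SE 0.059) from granulocyte to late granulocyte progenitors and fell by 3.30 (SE 0.22) into late neutrophils. In that last step Cebpb rose by 2.63 (SE 0.16). Cebpa fell by 2.81 (SE 0.18) and Gfi1, a transcriptional repressor, by 1.74 (SE 0.12) into cycling neutrophils. For each of these values edgeR's adjusted p was under the threshold of 0.05.

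The genes most like each granule gene were sought by correlating mean log2 CPM over the 10 gates among 4560 genes. These correlations describe 10 points taken from the same 4 libraries. Itgb2l, a beta integrin-like gene, was among the 2 nearest to Ngp (r = 0.987), Ltf (r = 0.989) and Lcn2 (r = 0.990). Mxd1, a MAX-binding repressor, was among the 2 nearest to Retnlg (r = 0.988) and Mmp9 (r = 0.986), and the others were Slc2a3, a glucose transporter (r = 0.986), for Retnlg and Ceacam10 (r = 0.993) for Mmp9. Camp was closest to 4930438A08Rik (r = 0.988) and Olfml2b (r = 0.987), and Olfml2b was also near Ngp (r = 0.983). Fcnb was closest to Ptgs1, cyclooxygenase-1 (r = 0.959), and Tecr (r = 0.955), Pglyrp1 to Cd9 (r = 0.975) and Alox5, 5-lipoxygenase (r = 0.935), Mmp8 to Stx11 (r = 0.969) and Ptafr (r = 0.958), and Chil3 to Vcl (r = 0.917) and Sh3bgrl3 (r = 0.899). Inhba (r = 0.982) completed the list for Ltf and Mapk13 (r = 0.989) that for Lcn2. Within the 10, Camp and Ngp were nearest to each other (r = 0.994), whereas the closest of the 10 to Chil3, Fcnb, reached r = 0.575.

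In classical monocytes 5 of the 9 genes tested were higher than in B lineage cells, Chil3 and Mmp8 by the most. Mmp8 and Fcnb were low in B lineage cells, at 0.00682 to 0.0331 and 0.00535 to 0.0331 UMIs per 10000. They passed the count filter through the monocyte gate and could only be called higher. The level of Chil3 in classical monocytes was 16.4 and 19.2 in TLR9-/- and 15.1 and 11.4 in WT, against 0.0785 to 0.134 in B lineage cells. By edgeR this was 157-fold higher (log2 7.29, SE 0.15, adjusted p = 4.07e-18). Cycling monocytes had 19.3 and 19.0 in TLR9-/- and 18.2 and 15.9 in WT, and monocyte progenitors had 3.94 and 4.49 against 5.60 and 6.54. In the 71 nonclassical monocytes Chil3 had 11.2 and 19.4 in TLR9-/- and 4.59 and 2.63 in WT, on 9 to 37 cells per library, and no test was made there.

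With every cell thinned to 1000 UMIs, 45.7% to 58.7% of classical monocytes had a Chil3 UMI in the 4 libraries, against 0.450% to 1.13% of B lineage cells. Unthinned, 470 of 663, 465 of 633, 232 of 400 and 162 of 269 classical monocytes had one, with medians of 5 to 8 UMIs in those cells. Median depth was 2595 to 3979 UMIs in classical monocytes and 1135 to 1730 in B lineage cells. The level was spread over many cells, since the top 5% of classical monocytes held 21.6% to 26.6% of the Chil3 UMIs. Of the classical monocytes with Chil3, 4.74% to 42.6% also had a Camp or Ngp UMI, and of those without Chil3 11.3% to 45.8% had one.

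As a share of UMIs, Retnlg in classical monocytes was near the level of B lineage cells, the measure of free RNA. It had 0.0918 and 0.0384 UMIs per 10000 there in TLR9-/- and 0.0593 and 0.279 in WT, and 0.0535, 0.0606, 0.0967 and 0.311 in B lineage cells of the same libraries in the same order. The ranges overlapped, and the edgeR difference was log2 0.13 (SE 0.24, adjusted p = 0.643). After thinning, a Retnlg UMI was found in 0.769%, 0.481%, 0.796% and 3.10% of classical monocytes and in 0.505%, 0.705%, 0.797% and 3.29% of B lineage cells. Across the alternatives the adjusted p ranged from 0.000909 to 0.871. A wider limit for S100a8 and S100a9 in the monocyte gate gave log2 1.06 (adjusted p = 0.000909), and stricter gates gave -0.74 (adjusted p = 0.0217). Such a wider gate admits cells with more neutrophil RNA, and whether this produced the difference was not tested.

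Mmp8, which passed the count filter through the monocyte gate, had the second largest difference from B lineage cells. Classical monocytes had 1.32 and 1.57 in TLR9-/- and 0.974 and 1.49 in WT, and B lineage cells had 0.00682 to 0.0331, a 90.7-fold difference (log2 6.50, SE 0.18, adjusted p = 2.87e-16). Cycling monocytes had 0.741 to 1.05 and monocyte progenitors 0.0893 to 0.129. Per 100 Camp UMIs, classical monocytes held 127 to 595 of Mmp8 in the 4 libraries, B lineage cells 1.64 to 3.73 and all neutrophil gates pooled 0.623 to 1.25.

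The remaining genes were low. Fcnb (log2 3.22, SE 0.35), Lcn2 (1.34, SE 0.14) and Pglyrp1 (1.295, SE 0.16) were higher in classical monocytes than in B lineage cells, at 0.111, 0.426 and 0.736 UMIs per 10000 on average. Camp (log2 -0.55, SE 0.11) and Ngp (-0.44, SE 0.12) were lower, and Ltf did not pass (-0.43, SE 0.38, adjusted p = 0.327). Levels are shares of UMIs, and median depth was 2595 to 3979 in classical monocytes against 1135 to 1730 in B lineage cells. Whether depth alone lowers the share of free RNA in monocytes was not tested. Mmp9 was under the count filter. Of the 9 tested, 5 were thus higher and 2 lower, where 32.0% and 35.2% of 10510 genes were. Mmp8 and Fcnb could only be called higher, as said above. Pglyrp1 was at 4.08 to 6.32 in nonclassical monocytes, above its 0.604 to 1.03 in classical ones in every library. In B lineage cells it had 0.398 ± 0.252 in TLR9-/- and 0.307 ± 0.068 in WT. Unlike Camp and Ngp, it was thus not highest there in WT library 2. Whether all Pglyrp1 in B lineage cells was free RNA was not tested.

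**Figure D3:**
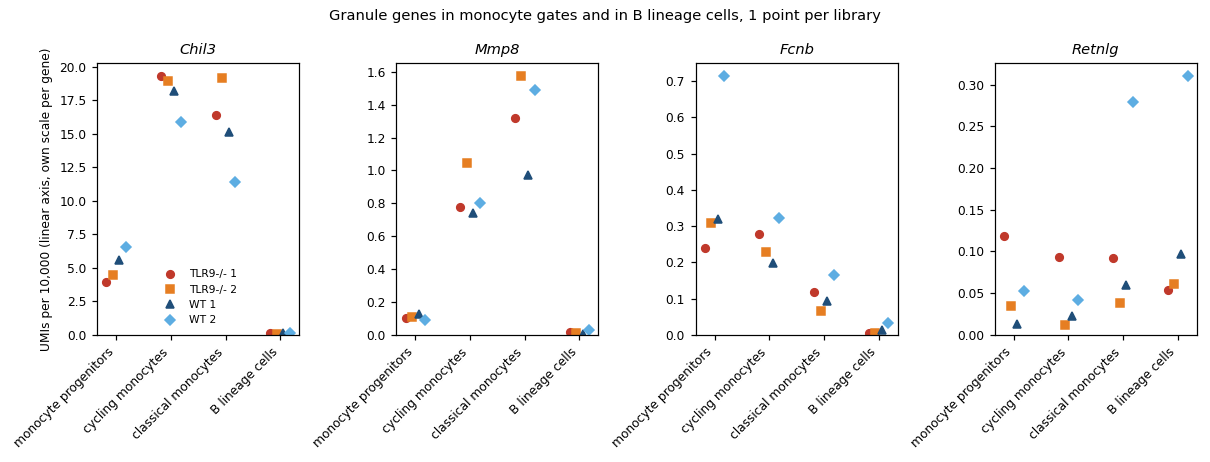
Chil3, Mmp8, Fcnb and Retnlg (y axes, UMIs per 10000, linear, each on its own scale from 0) in 3 monocyte gates and in B lineage cells (x axis), with 1 point per library. Chil3 and Mmp8 in classical monocytes lay above B lineage cells in every library, whereas Retnlg overlapped with them, with WT library 2 highest in both.

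The comparison of genotypes asked whether loss of TLR9 changed the granule genes within a stage. Adjusted by Benjamini-Hochberg over all genes of a gate, 0 of the genes tested passed edgeR's test in any of 8 gates (7 to 10 of the 10 tested per gate), and 0 by DESeq2. The share of all genes that passed was 0.274% in granulocyte progenitors, 0.189% in late granulocyte progenitors, 0.351% in cycling neutrophils, 0.439% in non-cycling immature neutrophils and 0.243% in late neutrophils. It was 0.398% in monocyte progenitors, 0.370% in cycling monocytes and 0.256% in classical monocytes. By DESeq2, 38, 20, 19, 18, 9, 28, 38 and 29 of all genes passed, in the same order of gates. At an unadjusted p under 0.05 there were 2, 0, 1, 0, 0, 3, 1 and 3 of the genes in these gates, in that order, and the share of all genes was 9.54%, 5.27%, 6.24% and 4.44% in the first 4 gates, 148 of 3704 genes in late neutrophils, and 8.31%, 6.76% and 5.25% in the monocyte gates. With the library number as a block, edgeR called 1, 1, 2, 0, 0, 3, 1 and 0 of the genes, in the same order of gates. Of all genes tested it then called 71 of 9474, 196 of 8990, 228 of 8270, 28 of 6601, 20 of 3704, 97 of 9551, 129 of 9447 and 39 of 8584. Whether a number marks an experiment is not stated in the labels. An exact permutation test of 2 libraries against 2 cannot go below 0.33.

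In its peak gate, each gene had a small estimate. For Camp in cycling neutrophils the log2 fold change, TLR9-/- against WT, was 0.0045 (SE 0.18), for Ngp 0.31 (SE 0.18) and for Chil3 0.34 (SE 0.18). In non-cycling immature neutrophils it was 0.19 for Ltf (SE 0.26), 0.10 for Lcn2 (SE 0.27) and -0.01 for Pglyrp1 (SE 0.25). In late neutrophils Mmp8 had 0.03 (SE 0.27), Mmp9 -0.09 (SE 0.26) and Retnlg -0.26 (SE 0.20). Fcnb in late granulocyte progenitors had -0.38 (SE 0.29). By edgeR the adjusted p of these estimates was 0.820 to 1.00.

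In cycling neutrophils the genotypes did not overlap for 4 of the 10 genes, all higher in TLR9-/-, where 36.4% of all genes tested did not overlap. Ltf was 1 of them, with 48.6 and 62.7 in TLR9-/- against 39.6 and 42.1 in WT (log2 0.48, SE 0.18, adjusted p = 0.653, and adjusted p = 0.0164 with the library number as a block). In late neutrophils 1 gene, Retnlg, did not overlap, with 393 and 414 against 501 and 511, beside 33.0% of all genes. Without TLR9-/- library 2, Retnlg there came to -0.36 (edgeR adjusted p = 0.0260). Camp and Ngp in granulocyte progenitors had log2 fold changes of -2.82 (SE 0.97, adjusted p = 0.469) and -4.54 (SE 0.93, adjusted p = 0.168). Both were highest in WT library 2, with 3.80 and 2.52 UMIs per 10000 against at most 0.366 and 0.160 in the others, and without it Camp turned to 1.31 and Ngp came to -1.39 (adjusted p = 0.370 and 0.324). Ngp was called with stricter gates (log2 -2.24, adjusted p = 0.0496) and with the library number as a block (-4.37, adjusted p = 0.00111).

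**Figure D4:**
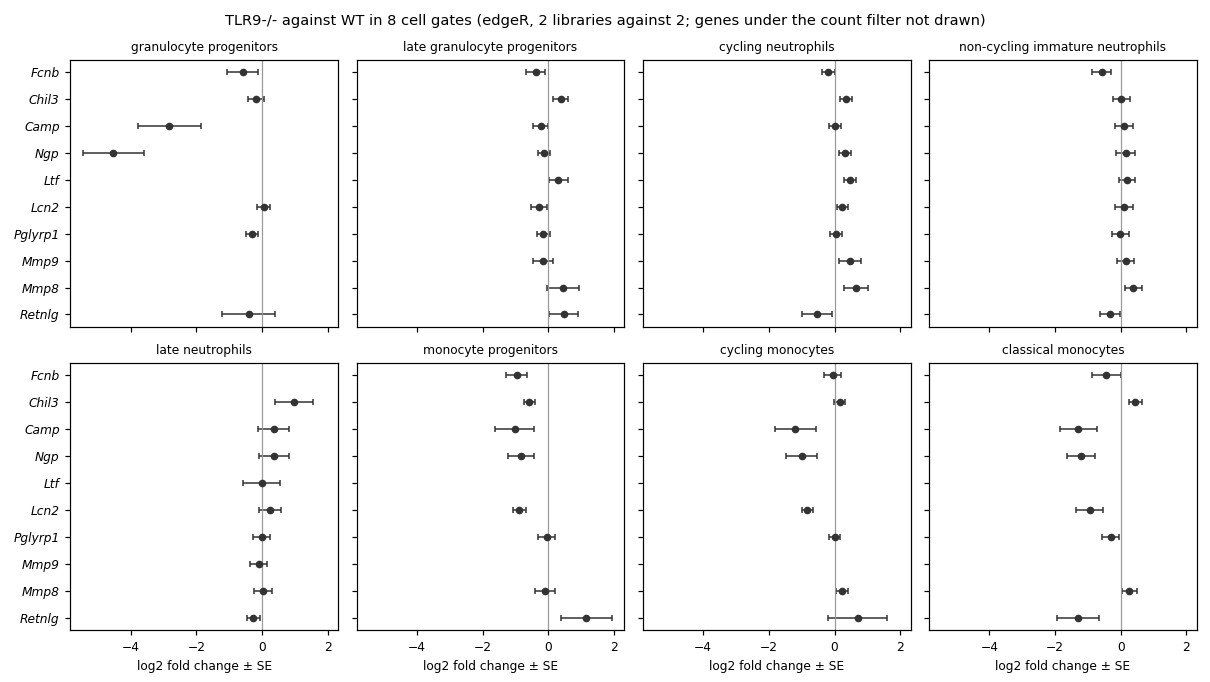
Log2 fold change of TLR9-/- against WT ± SE (x axis) for each granule gene (y axis) in 8 gates, from edgeR with 2 libraries per genotype. Most estimates in the neutrophil gates lie within 1 of 0, and none passed the adjusted threshold. Camp at -2.82 and Ngp at -4.54 in granulocyte progenitors come with high values in WT library 2.

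In monocyte progenitors 3 of the genes did not overlap between genotypes (Lcn2, Chil3 and Fcnb), all lower in TLR9-/-, beside 39.4% of all genes tested. Lcn2 had 0.396 and 0.412 in monocyte progenitors of TLR9-/- and 0.583 and 0.848 in those of WT (log2 -0.88, SE 0.21, adjusted p = 0.157), and 0.418 and 0.363 against 0.642 and 0.733 in cycling monocytes (log2 -0.83, SE 0.18, adjusted p = 0.164). In cycling monocytes Chil3 did not overlap either, higher in TLR9-/-, beside 37.4% of all genes tested. For Lcn2 the genotypes did not overlap in either gate. With the library number as a block Lcn2 was called in both (adjusted p = 0.0118 and 0.00452), and without WT library 2 it came to -0.54 and -0.73 (adjusted p = 0.644 and 0.854). In B lineage cells Lcn2 was 0.0967 and 0.119 in TLR9-/- and 0.135 and 0.500 in WT, and with that level subtracted the differences came to -0.82 (adjusted p = 0.176) and -0.71 (adjusted p = 0.317). Camp, Ngp and Lcn2 in classical monocytes (log2 -1.29, -1.22 and -0.95) were highest in WT library 2. Without it, Camp came to 0.32, Ngp to -0.22 and Lcn2 to 0.04.

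The difference of Chil3 between genotypes did not pass in any monocyte gate, and whether it differed between monocyte stages was not tested. Monocyte progenitors had 3.94 and 4.49 in TLR9-/- and 5.60 and 6.54 in WT, without overlap (log2 -0.58, SE 0.17, adjusted p = 0.334). Stricter gates turned this to 0.22, and without WT library 2 it was -0.42 (adjusted p = 0.896 and 0.676). Fcnb in that gate was 0.239 and 0.308 against 0.319 and 0.714 (log2 -0.97, SE 0.31, adjusted p = 0.44), and without WT library 2, the highest, it came to -0.23 (adjusted p = 0.923). In cycling monocytes Chil3 differed by 0.16 (SE 0.16, adjusted p = 0.873). In classical monocytes, the 16.4 and 19.2 of TLR9-/- lay above the 15.1 and 11.4 of WT (log2 0.44, SE 0.20, adjusted p = 0.93). There 34.9% of all genes tested did not overlap between genotypes. With the library number as a block, Chil3 (adjusted p = 0.0289) and Fcnb (log2 -0.93, adjusted p = 0.03002) were called in monocyte progenitors.

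Whether the genotype difference of Chil3 and Retnlg itself differed between classical monocytes and non-cycling immature neutrophils was tested as an interaction, in which 0.332% of 9041 genes passed. Chil3 had a difference of differences of 0.44 on the log2 scale (SE 0.19, adjusted p = 0.83) and Retnlg of -0.94 (SE 0.52, adjusted p = 0.999). Neither passed, and 4 of the 10 genes had an unadjusted p under 0.05, beside 5.24% of all genes. For Chil3 the estimate was 0.25 to 0.62 with 1 library left out. For Retnlg it ran from -2.10 to 0.62, at -2.10 without TLR9-/- library 1 and -1.84 without WT library 1. It turned positive without TLR9-/- library 2 or WT library 2. Retnlg in classical monocytes was near the level of B lineage cells, so its interaction sets neutrophil expression against a level near that of free RNA. A Retnlg UMI was in 8 and 10 classical monocytes of TLR9-/- and in 7 and 18 of WT. A single cell of TLR9-/- library 1 held 16 UMIs.

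Other granule genes gave 1 call between the genotypes within a gate. Anxa3, annexin A3, was higher in TLR9-/- cycling neutrophils (log2 1.18, SE 0.18, adjusted p = 0.0230), 1 of 18 further granule genes tested in that gate. Its estimate in non-cycling immature neutrophils was 1.16 (SE 0.26, adjusted p = 0.0836). Of the primary granule genes and the transcription factors, 0 passed in any gate by edgeR. Elane was at -0.87 (SE 0.28, adjusted p = 0.533) in non-cycling immature neutrophils and Cebpd at 0.50 (SE 0.18, adjusted p = 0.618) in cycling neutrophils. In the interaction above, Elane passed edgeR's test (log2 1.04, SE 0.20, adjusted p = 0.00433), 1 of 5 primary granule genes tested, beside 0.332% of 9041 genes. Elane is among the genes that set the gates.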

How the data were processed

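Bone marrow mononuclear cells of 2 TLR9-/- and 2 WT mice were sequenced from the 5′ end. The authors deposited UMI counts per gene and cell, 1 matrix per library, made with Cell Ranger (version 3.0.1 per the file headers) and STAR on mm10. Per the submitters' processing notes, Seurat 2.3.4 was used afterwards, and none of its output was used here. Cells with 200 to 10000 genes and at most 10% mitochondrial UMIs were kept. The study prints that limit as a value far smaller than the field uses, and 10 percent is a reading of it.

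Gates used UMIs per 10000 on marker lists. Granulocyte progenitors had at least 100 for Mpo, Elane, Prtn3 and Ctsg and under 100 for S100a8 and S100a9. Neutrophils had at least 1000 for S100a8 and S100a9, and late ones at least 50 on the late list. Classical monocytes had at least 20 on 7 monocyte genes and at least 10 for Ly6c2. All monocyte gates also required under 100 for S100a8 and S100a9. Apart from the progenitors, they required under 100 for Mpo, Elane, Prtn3 and Ctsg as well. These limits were set after the distributions of the lists were seen. The genes and lists were chosen with earlier results of these data known. Free RNA was removed only as an alternative. Doublets were marked with Scrublet in scanpy 1.11.5 (309 to 662 cells per library, in WT library 2 by the expected rate because the threshold marked 1 cell) and kept in the main values.

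UMIs were summed per library and gate and tested with edgeR 4.0.16 (TMM scaling, filterByExpr, quasi-likelihood, two-sided, Benjamini-Hochberg over all genes of a comparison, threshold 0.05) in R 4.3.3. DESeq2 1.42.0 was an alternative. Steps between gates and the comparison with B lineage cells had the library as a block, and the genotype comparison had none. The edgeR fits and the ordering were tested on simulated data. Of other genes, those named were the 2 with the lowest adjusted p of each list and comparison, and the 2 with the highest correlation to each granule gene among genes of at least 50 CPM in a gate (log2 of CPM + 1). Shares of cells were compared after thinning to 1000 UMIs, and such shares carry counting error only. Scaling by library size without TMM and a limit of 300 for S100a8 and S100a9 were added after the data were seen. Nonclassical monocytes were left out of the genotype comparison for their small number.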

Additional observations from a re-analysis of the deposited data

Results flagged for a closer look

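In 18 of 90 sets of 4 libraries (a gene in a gate), 1 library lay apart from the other 3 by Dixon's criterion at the 95% level, where chance gives about 1 in 20. In 14 of the 18 that library was WT library 2, and it was high. The values are UMIs per 10000.

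For Camp, WT library 2 had 3.80 in granulocyte progenitors (0.118 to 0.366 in the others), 0.611 in cycling monocytes, 1.17 in classical monocytes and 2.01 in B lineage cells. For Ngp it had 2.52 in granulocyte progenitors, 0.164 in monocyte progenitors, 0.388 in cycling monocytes, 0.681 in classical monocytes and 1.20 in B lineage cells. Ltf was at 0.0320 in its granulocyte progenitors, Lcn2 at 0.857 in classical monocytes and 0.500 in B lineage cells, Retnlg at 0.311 in B lineage cells and Fcnb at 0.714 in monocyte progenitors. Its neutrophil gates were not set apart for any of the 10 genes.

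Outside WT library 2, Mmp8 stood apart in TLR9-/- library 2, with 0.486 in cycling neutrophils and 13.04 in non-cycling immature neutrophils (8.02 to 8.26 in the others). Retnlg was low in WT library 1 in late granulocyte progenitors, at 0.365 (1.32 to 1.46 in the others), and low in TLR9-/- library 1 in non-cycling immature neutrophils, at 30.6 (57.5 to 61.7 in the others).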

How the results depend on the processing

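Of the genotype estimates, the tallies of values in this paragraph hold those of each gene in its peak gate and of Chil3 in 3 monocyte gates. They also hold those with an unadjusted p under 0.05 by edgeR. Calls that other genotype estimates gained are not in them. With settings other than leaving out a library, 816 values stayed, 15 gained a call and 3 lost one. A further 14 counts or positions moved, and 24 values changed direction. An estimate stayed if it kept its direction and side of the threshold. A count stayed if it changed by no more than a set ratio, and a position if it moved by less than its SD over libraries. With 1 library left out, 343 stayed, 12 counts moved, 16 changed direction and the others gained a call. The order along the index kept 45 of 45 gene pairs throughout. Counts of granule genes called between steps stayed at 10 to 10, 9 to 9, 8 to 8 and 9 to 10 with a library left out, and the count against B lineage cells at 7 to 7.

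Between genotypes, where 0 genes were called, leaving out 1 library gave 0 to 3 in granulocyte progenitors, 0 to 1 in late granulocyte progenitors (Retnlg without WT library 2, 1.92, adjusted p = 7.85e-06), 0 to 0 in cycling and in non-cycling immature neutrophils, 0 to 4 in late neutrophils (4 without TLR9-/- library 1, 2 without TLR9-/- library 2), 0 to 3 in monocyte progenitors (3 without WT library 1), 0 to 1 in cycling monocytes and 0 to 3 in classical monocytes (3 without WT library 1). One arm then has 1 library, which is assumed to vary like the other arm. With no filter on low counts, 2 of the granule genes were called in granulocyte progenitors, 3 in monocyte progenitors and 2 in classical monocytes. Of all genes, 197 of 14875, 135 of 14673 and 95 of 14072 were then called in these gates. Stricter gates gave 1 granule gene in granulocyte progenitors, beside 31 of 8328 of all genes. The genotype interaction was 0.25 to 0.62 for Chil3 and -2.10 to 0.62 for Retnlg, with 0.086 without TLR9-/- library 2. The cause of these changes was not tested.

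With the replicate block, which pairs libraries by number, 1 gene was called in granulocyte progenitors (Ngp, -4.37), 1 in late granulocyte progenitors (Retnlg, 0.63), 2 in cycling neutrophils (Ltf, 0.48, and Mmp8, 0.74), 3 in monocyte progenitors (Lcn2, Chil3 and Fcnb) and 1 in cycling monocytes (Lcn2, -0.83) by edgeR. Of all genes tested, the block called 71 of 9474, 196 of 8990, 228 of 8270, 97 of 9551 and 129 of 9447 in these gates. Deviations of same-numbered libraries correlated at 0.0346 to 0.248 over genes, with only 2 pairs, so the numbers were not taken to pair the mice.

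Direction changed between genotypes mostly for estimates near 0. Camp in cycling neutrophils came to -0.083 with stricter gates, -0.052 without doublets and -0.037 with library size scaling. Pglyrp1 in non-cycling immature neutrophils came to 0.023 without a filter, 0.000748 with stricter gates and 0.047 without doublets. Mmp8 in late neutrophils came to -0.0044 with DESeq2, -0.0024 with the granule genes left out of the scaling, -0.050 in cells with at least 1000 UMIs and -0.042 with library size scaling. Mmp9 there came to 0.035 without a filter and 0.0041 with stricter gates. Stricter gates turned Chil3 in monocyte progenitors to 0.22.

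With 1 library left out, Camp in granulocyte progenitors ran from -3.73 (without WT library 1) to 1.31 (without WT library 2), Fcnb in late granulocyte progenitors from -0.77 to 0.18 and Camp in cycling neutrophils from -0.068 to 0.10. In non-cycling immature neutrophils Lcn2 ran from -0.057 to 0.29 and Pglyrp1 from -0.085 to 0.084. In late neutrophils Mmp8 ran from -0.19 to 0.28 and Mmp9 from -0.23 to 0.051. In classical monocytes Camp ran from -2.08 (without WT library 1) to 0.32 (without WT library 2) and Lcn2 from -1.57 to 0.043 for the same libraries.

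From cycling to non-cycling neutrophils, Camp and Ngp came to -0.016 and -0.043 with stricter gates, -0.028 and -0.020 without doublets and -0.30 and -0.29 with library size scaling, and ran from -0.016 to 0.055 and from -0.035 to 0.062 with a library left out. Fcnb in the step to cycling neutrophils came to -0.33 with library size scaling, with which the median of all genes there was -0.41 in place of 0.026. Without doublets Retnlg in that step came to 0.37 (edgeR adjusted p = 0.0853). In classical monocytes against B lineage cells Retnlg came to -0.74 with stricter gates, -0.16 without doublets, -0.097 with library size scaling and -1.47 with the B lineage level subtracted, which by its construction lowers this comparison, and ran from -0.19 to 0.24 with a library left out. Depth limits the low values: Mmp9 was under the count filter in monocytes.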
